A study of Mus musculus with 2 samples.

Results

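The primary cilium and intraflagellar transport genes described here are 41 genes, taken from a list of symbols and found in the gene tables through their identifiers, of 43346 mouse gene identifiers in those tables. They comprise 13 subunits of the intraflagellar transport (IFT) particles, 7 subunits of the BBSome, 13 proteins of the transition zone and 8 genes with other roles in the cilium. The libraries were 2 total RNA-seq libraries of forebrain from B6NCrl mouse embryos at embryonic day 11.5, numbered as biological replicates 1 and 2, and there was no other condition, genotype or treatment. Replicate 1 pooled the forebrains of 109 embryos and replicate 2 those of 88 embryos, of mixed sex and labelled healthy. Levels are given in TPM, a length-scaled share of all transcripts in a library, which divides reads by transcript length and so allows levels of different genes to be set side by side. The libraries held 23165260 and 33597028 expected counts on mouse genes in replicates 1 and 2, and the 41 genes took 0.131% and 0.138% of them.

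The primary cilium is a single, non-motile, microtubule-based extension of the cell surface, carried by most neuroepithelial and radial progenitor cells of the embryonic forebrain, where it projects into the ventricle. IFT-B particles, pulled by kinesin-2, carry material to the tip, and IFT-A particles, pulled by dynein-2, bring it back. The BBSome rides on these particles and takes membrane proteins out of the cilium, while the transition zone at its base acts as a gate. Hedgehog signalling in vertebrates passes through the cilium, and mutations in these genes cause ciliopathies, among them Bardet-Biedl, Joubert and Meckel syndromes.

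All 10 forebrain marker genes were detected, which here means 1 TPM or more in both libraries, and all 6 posterior HOX genes were below that level. Vim, Tubb3 and Hes5 were the highest forebrain markers at 1013, 473 and 249 TPM, and Six3 was lowest at 13.7 TPM. Markers of other cell types were present too: 5 of 5 for embryonic red cells, 6 of 6 for mesenchyme, 5 of 5 for endothelium and 4 of 4 for microglia were detected. In replicates 1 and 2 they summed to 12764 and 13820 TPM for red cells, 674 and 683 TPM for mesenchyme, 118 and 111 TPM for endothelium and 48.5 and 45.0 TPM for microglia. The part of these cells in the levels below was not tested. In such bulk tissue a lower share of ciliated cells and less RNA per cell cannot be told apart.

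Every one of the 41 genes was detected, against 58.6% of 21474 protein-coding genes. Their levels ran from 1.86 TPM for Gpr161 to 104 TPM for Ift27, a 56.1-fold range. The median of the 41 genes was 17.3 ± 1.42 TPM (SD, n = 2 libraries), against 3.94 ± 0.0707 TPM over all protein-coding genes and 20.6 TPM over the 12581 detected ones. Thus 39 of the 41 genes stood above the median of all protein-coding genes, with Gpr161 and Bbs1 below it, but the typical cilium gene was not above the typical detected gene. When the 41 genes were ordered by mean level, the replicate ranges of 25 of 40 neighbouring pairs overlapped, so the fine order is not resolved. The IFT genes filled the top 5 places, Ift27, Ift46, Ift20, Ift22 and Ift74, followed by the transition zone gene Tmem216.

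**Figure D1:**
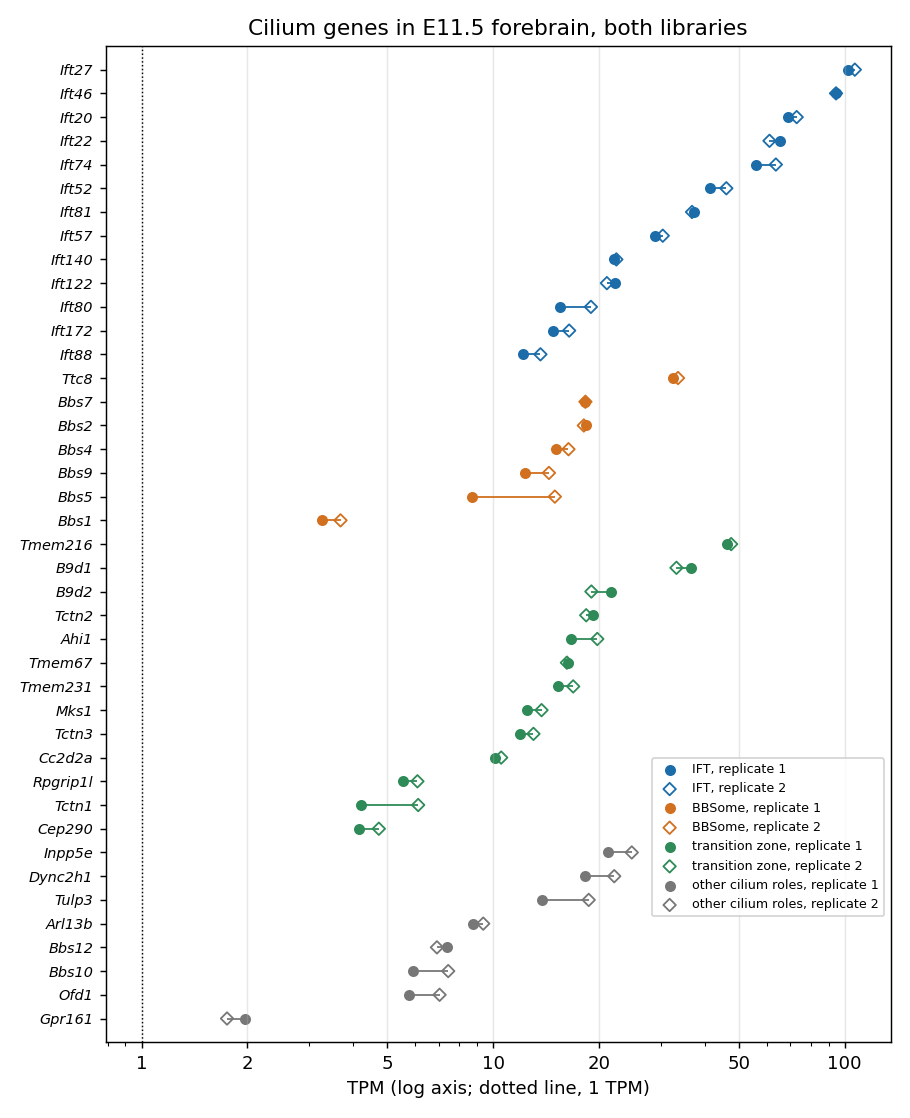
TPM of the 41 cilium genes on a log axis, grouped by complex, with filled circles for replicate 1 and open diamonds for replicate 2 and a line joining them. The IFT genes reach from 12.9 to 104 TPM, the BBSome genes from 3.47 to 33.0 TPM and the transition zone genes from 4.45 to 46.9 TPM, and the widest gap between replicates is that of Bbs5.

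Among the named subunits, IFT genes stood higher than the other complexes. The median IFT gene was at 37.3 and 36.8 TPM in replicates 1 and 2. The median BBSome gene was at 15.1 and 16.4 TPM, and the median transition zone gene at 15.3 and 16.2 TPM. On the log2(TPM + 1) scale the IFT median exceeded the BBSome median by 1.18 ± 0.09 and the transition zone median by 1.18 ± 0.07 (SD, n = 2 libraries), while the BBSome and transition zone medians differed by -0.00 ± 0.02. The ranges of the complexes overlapped widely, since each spanned from 8.10-fold to 10.6-fold within itself. No test was run over the genes of a complex, because they were chosen and are not replicates.

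The IFT excess depended on which subunits carried the comparison. With further IFT, BBSome and transition zone subunits added, a choice made after seeing the data, the medians were 20.5 TPM over 24 IFT genes, 17.0 TPM over 8 BBSome genes and 17.1 TPM over 20 transition zone genes, and the IFT median exceeded the others by 0.26 and 0.25 on the log2 scale. With transcripts of 2000 nucleotides (nt) or more, also chosen after seeing the data, the differences were 0.35 to the BBSome and 0.70 to the transition zone, over 8 IFT, 6 BBSome and 9 transition zone genes. Short transcripts were unevenly spread: 4 IFT and 3 transition zone genes but no BBSome gene had a mean length under 1100 nt, a limit that lies just below the BBSome gene Bbs5 at 1119 nt and 11.8 TPM. These 7 genes had a median of 63.3 TPM and lay between 20.3 and 104 TPM, against a median of 15.9 TPM over the 34 longer genes, which lay between 1.86 and 59.7 TPM. Among the 7 short genes, Ift46 had a mean length of 867 nt, though its leading transcript Ift46-202 has 1317 nt. Its 229-nt transcript Ift46-209 held 30.2% and 29.5% of its TPM but 5.10% and 5.02% of its counts in replicates 1 and 2. Spearman's correlation of length with TPM was -0.59 over the 41 genes and -0.85 over the 13 IFT genes, beside -0.26 over 12581 detected protein-coding genes. These are descriptions across genes, and TPM is itself a value divided by length.

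**Figure D2:**
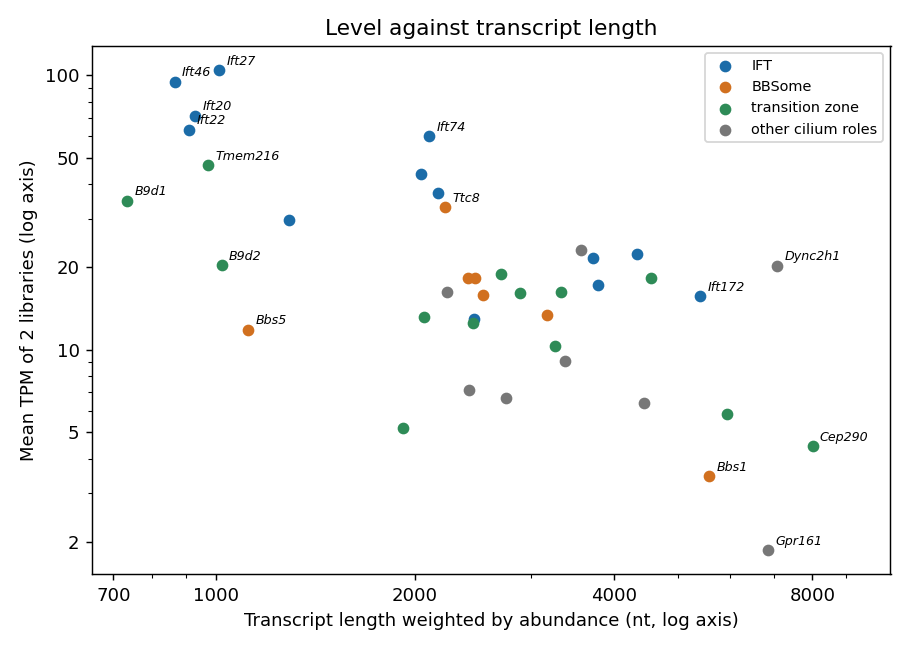
Mean TPM of both libraries against the abundance-weighted transcript length in nt, both on log axes, for the 41 genes coloured by complex. The 7 genes under 1100 nt lie at or above 20.3 TPM, Bbs5, just longer at 1119 nt, lies at 11.8 TPM, and Gpr161, Bbs1 and Cep290 are long and low, while Dync2h1 at 7069 nt stands at 20.2 TPM.

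The genes with the highest levels belonged to IFT-B, the particle that moves towards the ciliary tip. Ift27, a Rab-like small GTPase of the particle (chr15:78159463-78174107, minus strand, GRCm38), was at 102 and 107 TPM in replicates 1 and 2, and Ift46 (chr9:44767908-44793447, plus strand) was at 94.6 and 94.5 TPM. Ift27 binds Hspb11, also called IFT25, as a heterodimer, yet the transcript ratio of Ift27 to Hspb11 was 5.20 ± 0.324 (SD, n = 2 libraries). Ift20, which in mammalian cells also sits at the Golgi, was at 69.1 and 73.0 TPM, and Ift22, another Rab-like subunit, at 65.5 and 61.1 TPM. Ift20 stood 9.27 ± 1.12 times above Traf3ip1, whose protein IFT54 it binds.

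Ift74 and Ift81, which form a tubulin-binding pair, were nearer to each other. Ift74 was at 55.8 and 63.7 TPM and Ift81 at 37.3 and 36.8 TPM, a ratio of 1.61 ± 0.168. Of the core subunits, Ift52 was at 41.3 and 46.0 TPM, but Ift88, the subunit disrupted in the Oak Ridge polycystic kidney mouse, was the lowest of the 13 IFT genes at 12.1 and 13.6 TPM. The ratio of Ift88 to Ift52 was 0.295 ± 0.00156. Ift57 was at 28.9 and 30.4 TPM, 1.55 ± 0.0103 times the level of its partner Cluap1. The large peripheral subunits Ift80 and Ift172 were low and close together. Ift80 had 15.5 and 19.0 TPM and Ift172 14.8 and 16.4 TPM, with a ratio of 1.10 ± 0.0778. The pairs were chosen after the values were seen. They show that subunits that bind each other as proteins differed up to several-fold in transcript level.

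Of the IFT-A subunits for the return path, Ift122 was at 22.1 and 21.1 TPM and Ift140 at 22.1 and 22.4 TPM. Other IFT-A subunits, chosen after their values were seen, ranged from 8.12 TPM for Wdr19 to 55.7 TPM for Ift43, with Ttc21b at 13.0 and Wdr35 at 21.5 TPM on average. Dync2h1, the heavy chain of the dynein-2 motor that pulls them, was at 18.3 and 22.1 TPM from the largest count of the 41 genes, 1995 and 3322. Of 19 other IFT and motor genes, 17 were detected, led by the kinesin-2 subunit Kif3a at 61.3 TPM, by Ift43, and by the kinesin-2 adaptor Kifap3 at 37.2 TPM on average. The lowest was Kif17, a kinesin of sensory cilia, at 0.12 TPM, and the other undetected gene was Ttc30a2 at 0.35 TPM, a near copy of Ttc30a1 and Ttc30b whose shared reads make its level uncertain.

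The 7 BBSome genes spanned a 9.53-fold range, though some of them lay close together. Bbs2, Bbs7, Bbs4 and Bbs9 lay between 12.3 and 18.4 TPM in both libraries, and the ratio of Bbs2 to Bbs7 was 0.999 ± 0.0128. Ttc8, which encodes the subunit BBS8, was highest at 32.5 and 33.6 TPM. Bbs1, the subunit that contacts the GTPase Arl6, was lowest at 3.25 and 3.68 TPM, with counts of 272 and 446 over a transcript of 5581 nt. Bbs5, which binds phosphoinositides, was at 8.68 and 14.98 TPM, the widest replicate gap of the 41 genes relative to its level. Bbs10 and Bbs12 encode chaperonin-like proteins that help to assemble the BBSome. Bbs10 was at 5.91 and 7.45 TPM and Bbs12 at 7.38 and 6.92 TPM, both under most BBSome genes. The 7 other BBSome and cargo adaptor genes were all detected, from 29.97 TPM for the chaperonin-like Mkks to 120 TPM for Arl3, a GTPase that releases lipidated cargo in the cilium. The carriers Pde6d and Unc119b were at 66.8 and 65.0 TPM.

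Transition zone genes spanned a 10.6-fold range, the widest of the 3 complexes as a fold though not in TPM. The small membrane protein gene Tmem216 led at 46.4 and 47.5 TPM. The B9-domain genes were unequal: B9d1 was at 36.5 and 33.2 TPM, B9d2 at 21.6 and 19.0 TPM, and Mks1, the third B9-domain gene, at 12.5 and 13.7 TPM. The ratio of B9d1 to Mks1 was 2.67 ± 0.358. The tectonics differed more: Tctn2 was at 19.3 and 18.4 TPM, Tctn3 at 11.9 and 13.0 TPM and Tctn1 at 4.21 and 6.12 TPM.

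The membrane proteins Tmem67, also called meckelin, and Tmem231 were at 16.3 and 16.2 TPM and at 15.3 and 16.9 TPM. Ahi1, mutated in Joubert syndrome, was at 16.6 and 19.8 TPM, and Cc2d2a, which encodes a C2-domain protein of the gate, at 10.2 and 10.5 TPM. Together with Tctn1, the large scaffolds at the base of the gate were lowest. Rpgrip1l was at 5.53 and 6.09 TPM and Cep290, which spans from the axoneme to the membrane, at 4.16 and 4.73 TPM (chr10:100487558-100574840, plus strand). The 12 other transition zone and inversin compartment genes were all detected, from 3.43 TPM for Anks6 to 55.6 TPM for Iqcb1, with Tmem107 at 47.6 and Tmem237 at 42.7 TPM.

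The remaining genes act at the centriole or in the ciliary membrane. Inpp5e, a phosphatase that keeps phosphoinositides in the ciliary membrane distinct, was at 21.2 and 24.8 TPM, and Arl13b, the GTPase that retains it there, at 8.77 and 9.37 TPM. Ofd1, a protein of centriole ends and satellites encoded on chromosome X, was at 5.78 and 7.04 TPM. Tulp3, which links IFT-A to receptors that enter the cilium, was at 13.7 and 18.7 TPM. Its cargo Gpr161, a receptor that holds Hedgehog signalling down, was the lowest of the 41 genes at 1.97 and 1.75 TPM from 204 and 261 counts.

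The 13 other Hedgehog genes were all detected, from 1.75 TPM for the ligand gene Shh to 149 TPM for the co-receptor gene Gas1. The signal transducer Smo was at 57.7 TPM and the transcription factor gene Gli3 at 52.9 TPM. All 14 basal body and cilium assembly genes were detected, led by the GTPases Rab11a at 201 TPM and Rab8a at 77.9 TPM and by Cep89 at 47.7 TPM, with the kinase gene Ttbk2 lowest at 8.50 TPM. All 6 cilium disassembly genes were detected, led by the mitotic kinases Plk1 at 152 TPM and Aurka at 152 TPM and the tubulin deacetylase Hdac6 at 59.2 TPM, with Kif24 lowest at 12.03 TPM. Plk1 and Aurka also act in mitosis, so their levels do not measure ciliary function alone.

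Of 18 genes of motile cilia 9 were detected (against 58.6% of protein-coding genes), and the median of the 18 was 1.30 TPM, against 3.94 TPM over all protein-coding genes. Ccdc40 was highest at 24.2 TPM, followed by the radial spoke gene Rsph9 at 11.8 TPM and by Ccno at 4.81 TPM, and Cdhr3 was lowest at 0.02 TPM. The outer arm dynein genes Dnah5, Dnah9 and Dnah11 lay between 0.05 and 0.38 TPM, and Foxj1, the master factor of motile cilia, had 5.42 and 4.19 TPM in replicates 1 and 2. These 4 genes were picked out after their values were seen.

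RFX transcription factors bind a palindromic element called the X-box in the promoters of cilium genes of many animals. Of 8 RFX genes 6 were detected, led by Rfx3 at 33.8 TPM, Rfx4 at 27.2 TPM and Rfx7 at 21.7 TPM, and Rfx6 had no count in either library. RefSeq promoter windows of 300 bases, from 250 before to 50 after the annotated start (GRCm38.p6), were found for 37 of the 41 genes, the exceptions being Ift122, Ift80, Ift81 and Tmem67. The X-box letters searched, on both strands, were GTNNCC followed after 2 free bases by GGNAAC, where N is any base. They were present in 11 of 37 windows (29.7%), against 1.49% of 27025 genes and 6 of 45 windows (13.3%) of the other IFT, BBSome, transition zone and basal body genes. This spelling was chosen from 8 overlapping spellings after their counts were seen, and a match is a description, not a site shown to be bound. The stricter spelling with GTTGCC as its left side, every match of which also matches the main one, was in 4 of 37 windows (10.8%), against 0.355% of genes. The spelling with the most fixed bases, which also sets the 2 free bases to AT, was in 0 of 37 windows, against 0.0851% of genes. The shortest spelling, GTTNCC alone, was in 30 of 37 windows (81.1%), against 48.8% of genes. The 4 matches to the stricter spelling and all matches in IFT genes are printed, because they show how the same letters recur in genes of different complexes. Each runs 5′ to 3′ on the strand of the gene, with the matched 14 bases in capitals. In Ahi1 the stricter match reads on the opposite strand. In Ift57, and in Ift22 farther from the start, the main match reads on the opposite strand too.
Bbs7 (chr3:36613489-36613518, minus strand): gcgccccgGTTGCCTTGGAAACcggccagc
Ahi1 (chr10:20952560-20952589, plus strand): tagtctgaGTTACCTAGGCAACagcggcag
Mks1 (chr11:87853183-87853212, plus strand): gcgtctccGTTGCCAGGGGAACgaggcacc
Tctn1 (chr5:122264411-122264432, minus strand): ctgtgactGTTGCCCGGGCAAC
Ift22, farther from the start (chr5:136908079-136908108, plus strand): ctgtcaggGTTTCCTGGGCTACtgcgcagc
Ift22, nearer to the start (chr5:136908109-136908138, plus strand): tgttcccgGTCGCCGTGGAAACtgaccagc
Ift57 (chr16:49699199-49699228, plus strand): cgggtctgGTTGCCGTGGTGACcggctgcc

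By complex, the letters were in 2 of 10 IFT windows, 3 of 7 BBSome windows (Bbs1, Bbs4 and Bbs7), 6 of 12 transition zone windows (the 3 above and Tctn2, Tmem216 and Tmem231) and none of the 8 windows of other genes. The 12 matches lay between 121 bases before and 37 bases after the annotated start, and 6 of them lay before it. Genes with the letters did not stand apart by level: their median was 18.2 TPM and they ran from 3.47 to 63.3 TPM (n = 11), against a median of 15.9 TPM and a range from 1.86 to 104 TPM for those without (n = 26). Bbs1, the lowest BBSome gene, and Ift22, one of the highest IFT genes, both had them.

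**Figure D3:**
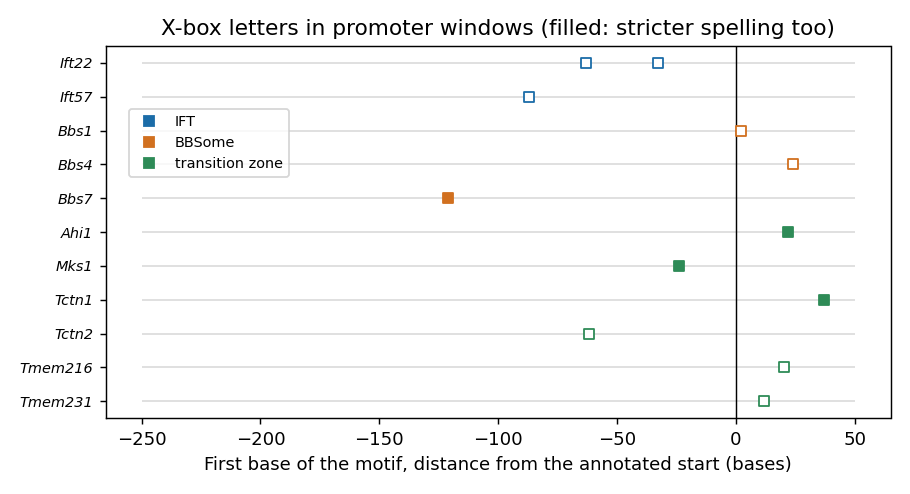
Distance in bases of the first base of each match to the X-box letters from the annotated start, for the 11 genes that have one, coloured by complex and filled where the stricter spelling matches too. The matches fall between -121 and 37, on either side of the start.

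Single transcripts carried most of the level for most of these genes. In 10 genes the tables held values for 1 transcript, and in 22 of the 31 others a single transcript held 50% or more of the gene's TPM. The leading transcript by TPM was the same in both libraries in 39 genes. In the remaining 9 of these 31 genes no transcript reached 50% as the mean of both libraries. No counts over all genes are set beside these, so they do not show a trait particular to the cilium genes. Ift20-203 and Ift20-202, both protein-coding, held 39.7% and 38.0% in replicate 1 and 37.3% and 36.3% in replicate 2, and the retained-intron transcript Ift20-204 held 20.1% and 24.6%. Ift46-202 held 48.0% and 47.1% in replicates 1 and 2, Ift122-201 43.2% and 43.7%, Tmem216-202 49.1% and 50.2%, Bbs9-201 39.3% and 37.8% and Ift57-203 38.0% and 40.3%. These are shares of TPM. By counts Ift46-202 held 75.8% and 74.9% and Tmem216-202 50.2% and 51.9%, while Ift122-201, Bbs9-201 and Ift57-203 stayed under 50%.

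For the dynein-2 heavy chain the answer also depended on the measure. Dync2h1-202, an annotated transcript of 2892 nt, held 46.9% and 48.4% of TPM but 18.3% and 19.9% of counts in replicates 1 and 2. The transcript Dync2h1-204 of 14264 nt held 24.8% and 24.3% of TPM and 49.2% and 50.7% of counts. By TPM the short transcript led, and by counts the long one did.

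In Cc2d2a and Tulp3 the leading transcript by TPM differed between libraries. Cc2d2a-202 held 40.5% of TPM in replicate 1 and 29.6% in replicate 2, where an entry absent from the later annotation (GENCODE M21) held 44.1%. Tulp3-201 held 58.7% in replicate 1 and 38.2% in replicate 2, against 23.5% and 38.8% for Tulp3-205. By counts, however, Tulp3-201 led in both libraries, with 80.7% and 66.7%, against 9.34% and 19.6% for Tulp3-205. For Cc2d2a the leader by counts also differed, with Cc2d2a-202 at 48.2% in replicate 1 and 35.1% in replicate 2. There Cc2d2a-201 led with 37.1% of counts. These gene levels rest on counts of 489 and 737 for Cc2d2a and 503 and 781 for Tulp3, which are further divided among transcripts by estimation.

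Transcripts annotated as non-coding took part of the level of many of these genes. The median protein-coding share of TPM was 83.7% over the 31 genes with several transcripts, and transcripts with a retained intron held over 10% of TPM in 13 genes. Here too no share over all genes is set beside the counts. Mks1 had 35.1% of its TPM, as the mean of both libraries, in retained-intron transcripts, Tctn1 34.4%, Bbs5 28.5%, Ift20 22.4%, Ift88 22.3% and Bbs2 22.1%. Transcripts marked for nonsense-mediated decay held 14.0% of TPM in Ift88 and 11.9% in Tctn1. Those of the type processed transcript held over 10% of TPM in 7 genes, led by Tctn2, then B9d1 with 41.2% and Ift140 with 36.9%. These shares depended on the measure, as for Dync2h1. By share of counts, retained-intron transcripts held over 10% in 8 genes, with 20.98% in Mks1, 25.6% in Tctn1, 11.7% in Bbs5, 28.7% in Ift20, 16.8% in Ift88 and 3.90% in Bbs2. Transcripts marked for nonsense-mediated decay held 2.77% of counts in Ift88 and 14.2% in Tctn1, and the median protein-coding share was 93.7% of counts. Processed transcripts held 33.5% of counts in B9d1 and 20.4% in Ift140. In Tctn2 the leading transcript, Tctn2-207, with 86.3% and 85.3% in replicates 1 and 2, has the type processed transcript in M21, and no transcript of Tctn2 in the tables was typed as protein-coding. The libraries were of total RNA, and the share of unspliced RNA in these values was not tested.

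**Figure D4:**
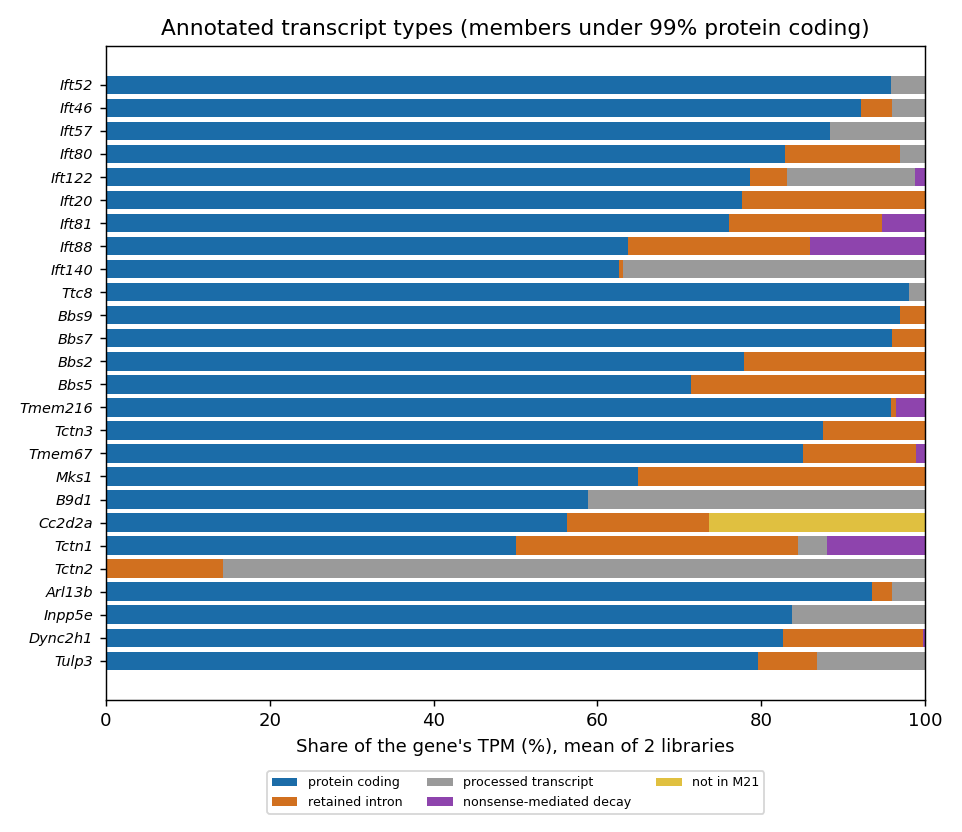
Share of each gene's TPM, in percent and as the mean of both libraries, held by transcripts of each annotated type, for the cilium genes with under 99% in protein-coding transcripts. Tctn2 has no protein-coding share, Tctn1 has 50.04% and Cc2d2a 56.3%, and orange bars for retained introns reach 35.1% in Mks1.

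The replicates were compared gene by gene with an exact binomial test on counts, which compares these libraries and not conditions. At an adjusted p under 0.05, 10 of the 41 genes (24.4%) differed, against 23.4% of 18297 genes tested and 25.5% of 8484 genes with summed counts in the range of the 41, from 359 to 5317. The share of called genes is thus near the background. All 10 were lower in replicate 1 than in replicate 2, the direction called in 12.6% of all genes tested. Over the 41 genes the median log2 ratio of replicate 1 over replicate 2 was -0.07, against 0.00 over genes of the same count range, and 29 genes (70.7%) were lower in replicate 1, against 49.4% in that range.

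The lowest ratio was that of Bbs5, with 150 counts in replicate 1 and 301 in replicate 2, a log2 ratio of -0.47 (adjusted p = 0.00656, exact binomial test with Benjamini-Hochberg adjustment). Scaled for library size, its counts were 1.39-fold higher in replicate 2. The gap in its TPM was wider, with 8.68 in replicate 1 and 14.98 in replicate 2. Its leading transcript Bbs5-201 held 75.7% of TPM in replicate 1 and 49.0% in replicate 2, but 91.7% and 73.9% of counts. Tctn1 followed with a log2 ratio of -0.46 (adjusted p = 0.0203, same test) from 120 counts in replicate 1, whose 95% Poisson interval is 99.5 to 143, and 239 in replicate 2, with an interval of 210 to 271. Tctn1-201 held 66.7% of TPM in replicate 1 and 33.3% in replicate 2. Bbs10 had a log2 ratio of -0.34 (adjusted p = 0.0207), Ofd1 of -0.29 (adjusted p = 0.0112) and Ift80 of -0.27 (adjusted p = 0.000119, all by the exact test). The counts of Dync2h1 gave the smallest p of the 41 genes for a log2 ratio of only -0.21 (adjusted p = 8.34e-06, exact test). The other called genes were Ift74, Ift172, Ahi1 and Inpp5e, and the highest ratio was 0.18 for B9d2, which was not called.

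The library difference was also read by transcript length. Among the 16 cilium genes of 3000 nt or more, 13 were lower in replicate 1, against 56.4% of 3460 genes of that length and count range. Their median log2 ratio was -0.15, beside -0.03 for those genes. Among the 16 from 1500 to 3000 nt, 11 were lower in replicate 1, against 44.5% of 3390 genes, with medians of -0.06 and 0.02. Among the 9 under 1500 nt, 5 were lower in replicate 1, against 44.8% of 1634 genes, with medians of -0.02 and 0.02. The part of transcript length in the library difference was not tested.

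**Figure D5:**
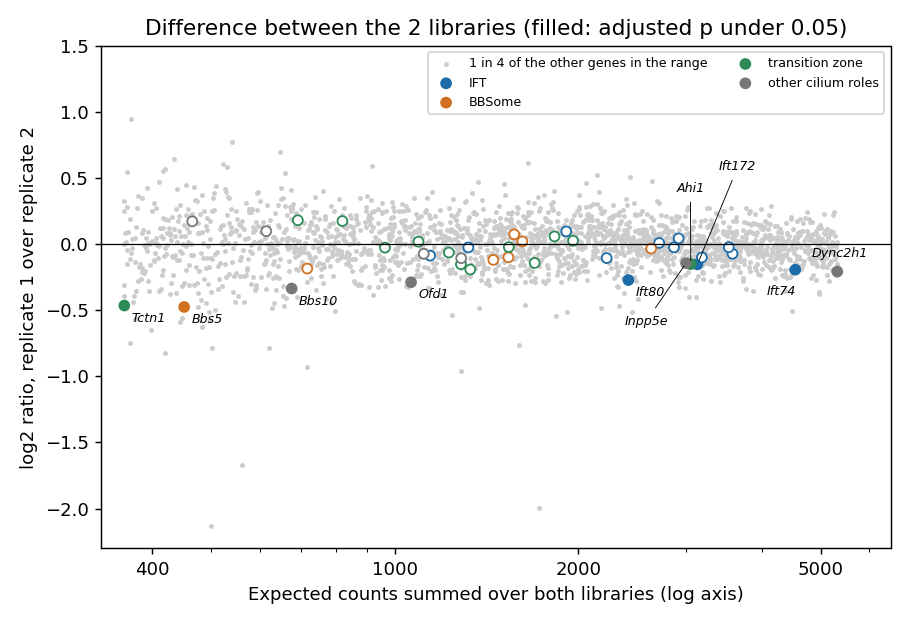
Log2 ratio of counts, replicate 1 over replicate 2, against expected counts summed over both libraries on a log axis, for the 41 cilium genes (filled where the adjusted p is under 0.05) and a subset of other genes in the same count range in grey. The 10 filled points all lie below 0, between -0.47 and -0.14, within the spread of the grey points.

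Of the 41 genes, 10 share exon bases with a gene on the opposite strand in GENCODE M21, and how the counting treated strand is not given in the sources used here, so their levels are less certain. Tctn1 shares 1574 bases with the proton channel gene Hvcn1, Cep290 shares 881 with 4930430F08Rik, and Inpp5e shares 874 with Pmpca, which stood at 102 and 102 TPM. The other 7 are Bbs4, Bbs12, Ift57, Ift88, Ofd1, Tmem67 and Tmem216. Counts were whole numbers in both libraries for 34 genes. They were not whole for 7, Ift57, Tctn1, Tmem67, Tmem216, Cep290, Ofd1 and Inpp5e, all of them among these 10.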

How the data were processed

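Total RNA-seq libraries of 1 group (replicates 1 and 2) were analysed. Per the labels, 10 ng of RNA above 200 nt entered each library, with spike-ins. Alignment was to mm10 with GENCODE M4 transcripts, as notes deposited with the samples say; the aligner, the quantifier and their versions were not given in the sources used here. Values deposited by the authors are expected counts, which divide reads among transcripts and need not be whole, TPM over all entries including spike-ins, FPKM, a posterior mean TPM and, per the file headers, a posterior standard deviation of the count. From these, gene names, types and coordinates were added by identifier from GENCODE M21, which uses that build (GRCm38), and 42462 of 43346 identifiers (98.0%) matched. Entries with numeric identifiers (26248) and 97 spike-in entries, with 5.66% and 5.49% of counts in replicates 1 and 2, stayed out of library sizes and tests.

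List levels are medians of log2(TPM + 1), with the SD over 2 libraries. Libraries were compared on rounded expected counts with TMM scaling (edgeR 4.0.16, R 4.3.3) and an exact two-sided binomial test (scipy 1.17.1, log2 ratios with 0.5 counts added), and p-values were adjusted by the Benjamini-Hochberg method (threshold 0.05) across all genes whose summed counts reached 10. With 1 library a side no dispersion can be estimated, so p-values cover counting error only. The test was checked on simulated counts with counting error alone and large changes. That check does not cover other variation between libraries or small ratios. DESeq2 1.42.0 size factors were an alternative. Genes and lists were chosen with earlier results of these data known. All 41 genes are named; of other lists the 3 highest and the lowest (for HOX genes and markers of other cell types counts or sums only), of transcripts the leading one where it holds under 50% or is not protein-coding, and of the library comparison the 6 largest ratios with values. Other names were added after values were seen. Promoter sequences come from RefSeq. Intervals reflect counting error alone, as molecular identifiers are not described.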

Additional observations from a re-analysis of the deposited data

How the results depend on the processing

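Under the alternative settings 34 values stayed within the spread between replicates, or within 1.5 times for a count. The other 8 moved, all of them differences between complexes. Leaving out 1 library could not move a difference beyond that spread, because each of 2 values lies within 1 SD of their mean. Nor could it change the number detected, as all 41 genes were detected in both libraries. Those settings are therefore no check. Both IFT differences kept their direction, while the BBSome minus transition zone difference, near 0, took either sign. The IFT minus BBSome difference was 1.30 on the log2 scale with posterior mean TPM, 0.35 with transcripts of 2000 nt or more and 0.26 with other subunits added. The IFT minus transition zone difference was 1.30, 0.70 and 0.25 under the same settings. The BBSome minus transition zone difference was -0.077 with Dync2h1, Bbs10, Bbs12 and Ofd1 in the lists and 0.35 with the longer transcripts. Without replicate 1 or replicate 2 the differences ranged from 1.12 to 1.25, from 1.13 to 1.23 and from -0.02 to 0.01. The length limit and the added subunits were chosen after seeing the data. Among the 41 genes, 9 were called between libraries with total counts, 12 with spike-in scaling and 10 under the other settings. All of them were lower in replicate 1. The share of all tested genes called was 23.54% with total counts and 24.97% with spike-in scaling. It was 17.01% without a count filter and 28.06% at 50 or more summed counts. This background thus moved with the filter, while the number called among the 41 genes stayed at 10. At 5 TPM, 37 of the 41 genes were detected. The share of all protein-coding genes at 5 TPM was not counted, so this number has no background beside it. No paired analysis was possible because there is 1 group, with 1 library for each replicate number. With 2 libraries the SD is itself poorly known, and genes such as Tctn1, with 120 counts in replicate 1, are resolved only to about the width of their intervals.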
